A study of Homo sapiens with 8 samples.

Results

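The heat shock proteins and their co-chaperones made up 77 of the 19775 genes that the arrays could name. They were chosen by gene symbol alone, as the HSP70 (HSPA), small heat shock protein (HSPB and CRYAB), HSP110, HSP90, mitochondrial chaperonin, J-domain (DNAJA, DNAJB and DNAJC), BAG and heat shock factor (HSF) families, without pseudogenes. Their RNA was measured in 2 human colon cancer cell lines, HT29 and SW480, on 8 Affymetrix arrays in 4 groups of 2. The groups were HT29 spheres, grown without serum in DMEM-F12 with N2 supplement, bFGF at 10 ng/ml and EGF at 10 ng/ml; HT29 parental cells; an SW480 stable line labelled as expressing Snail; and an SW480 stable line with the vector. The last 3 groups were all grown in DMEM with 10% fetal bovine serum, so sphere growth and culture medium changed together. The promoter that drives Snail is not given in the sources used here, nor whether each stable line was 1 clone. Each value below is a deposited log2 expression level, on which a difference of 1 is a 2-fold difference, and a gene was represented by its probe set with the highest mean over the 8 arrays. A gene was called changed when limma's moderated test gave a Benjamini-Hochberg adjusted p under 0.05 over all 19775 genes.

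Chaperones of these families bind unfolded or partly folded proteins. HSP70 proteins bind and release their clients in a cycle of ATP hydrolysis: J-domain proteins bring clients and speed hydrolysis, and BAG and HSP110 proteins exchange the nucleotide. HSP90 acts on near-native clients such as kinases and steroid receptors, small heat shock proteins hold unfolded chains without ATP, and the chaperonin HSPD1 with its lid HSPE1 folds proteins inside mitochondria. In the cytosol, heat and other proteotoxic stress activate HSF1, which binds heat shock elements in promoters of inducible chaperone genes; in the endoplasmic reticulum (ER), unfolded proteins activate a separate response that raises HSPA5 (BiP) and HSP90B1 (GRP94), partly through ER stress response elements. Cancer cells, colon cancer included, commonly carry high levels of several of these proteins.

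Promoter windows from RefSeq (GRCh38.p14, 250 bases before to 50 after the annotated start) were matched for 67 of the 77 genes and searched on both strands for 2 motifs. The heat shock element (GAA, any 2 bases, TTC, any 2 bases, GAA) was present in 3 of the 67 windows (4.48%), against 133 of 27305 windows of the whole table (0.487%). The ER stress response element (CCAAT, any 9 bases, CCACG) was present in 2 of the 67 (2.99%), against 22 of the 27305 (0.0806%), and it did not overlap the other motif. These 5 windows are shown because they belong to genes described below, HSPA6 (chr1:161524290-161524589, plus strand, motif at base -74), DNAJA1 (chr9:33025023-33025322, plus strand, motif at base 3), DNAJB6 (chr7:157336754-157337053, plus strand, motif at base -131), HSPA5 (chr9:125241294-125241593, minus strand, motif at base -66) and HSP90B1 (chr12:103930160-103930459, plus strand, motifs at bases -194 and -89). Positions count from the annotated start, and capitals mark the motif on either strand:
HSPA6: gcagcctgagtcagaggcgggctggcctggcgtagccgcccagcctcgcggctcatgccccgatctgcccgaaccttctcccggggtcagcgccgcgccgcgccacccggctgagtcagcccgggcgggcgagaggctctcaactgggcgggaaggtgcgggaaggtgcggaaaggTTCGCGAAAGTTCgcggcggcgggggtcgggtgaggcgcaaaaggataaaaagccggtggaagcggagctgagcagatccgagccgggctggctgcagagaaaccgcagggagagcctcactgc
DNAJA1: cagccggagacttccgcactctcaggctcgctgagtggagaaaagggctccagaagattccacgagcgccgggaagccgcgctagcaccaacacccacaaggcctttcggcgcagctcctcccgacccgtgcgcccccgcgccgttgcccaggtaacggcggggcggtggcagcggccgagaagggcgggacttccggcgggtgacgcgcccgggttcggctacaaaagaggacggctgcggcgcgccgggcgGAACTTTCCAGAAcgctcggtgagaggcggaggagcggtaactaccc
DNAJB6: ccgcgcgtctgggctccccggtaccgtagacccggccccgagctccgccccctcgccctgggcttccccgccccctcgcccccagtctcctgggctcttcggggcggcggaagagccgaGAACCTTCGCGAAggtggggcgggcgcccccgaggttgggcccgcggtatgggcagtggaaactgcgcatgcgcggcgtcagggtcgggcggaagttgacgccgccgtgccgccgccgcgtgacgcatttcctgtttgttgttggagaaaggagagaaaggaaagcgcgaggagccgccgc
HSPA5: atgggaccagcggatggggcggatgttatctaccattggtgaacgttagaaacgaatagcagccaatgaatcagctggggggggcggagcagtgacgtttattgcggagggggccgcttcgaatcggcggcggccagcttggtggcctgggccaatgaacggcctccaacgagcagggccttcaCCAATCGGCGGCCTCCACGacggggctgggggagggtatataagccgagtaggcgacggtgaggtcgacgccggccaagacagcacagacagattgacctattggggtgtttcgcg
HSP90B1: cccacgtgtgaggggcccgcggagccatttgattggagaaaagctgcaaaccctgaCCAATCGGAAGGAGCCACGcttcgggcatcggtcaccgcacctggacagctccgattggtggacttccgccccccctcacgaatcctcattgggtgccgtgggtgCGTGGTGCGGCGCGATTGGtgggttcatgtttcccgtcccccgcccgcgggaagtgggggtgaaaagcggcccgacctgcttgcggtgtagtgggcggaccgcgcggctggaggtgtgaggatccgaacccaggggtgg
A match is a description of these letters and not evidence of binding.

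Arrays of 1 group correlated at 0.995 in the spheres, 0.991 in the parental cells, 0.995 in the arrays labelled Snail and 0.995 in the vector line (Pearson's r across genes, which are not independent replicates). The parental arrays lay furthest apart, with 200 genes at least 2-fold apart, against 10 to 19 in the other groups. The labels do not tell whether paired arrays hold RNA of separate cultures, so p-values measure only the spread between these arrays, and an exact permutation test of 2 arrays against 2 cannot go below 0.333. SNAI1, the gene for Snail, had levels of 6.32 and 6.38 in the arrays labelled Snail and 6.36 and 6.34 in the vector arrays, a log2 fold change of 0.00 ± 0.15 (SE, adjusted p = 0.99). The overexpression was therefore not seen in SNAI1 RNA, and every direction given below for that comparison rests on the label; whether the construct holds the sequence these probes target is not given in the sources used here. In the spheres SNAI1 was higher, at 6.93 and 7.21 against 5.87 and 6.15 in parental cells (log2 fold change 1.07 ± 0.15, adjusted p = 3.2e-04). The summed linear signal of 6 colon epithelial markers was 33005 to 34988 in spheres and 33136 to 33908 in parental cells, and 33264 to 33941 in arrays labelled Snail and 25139 to 26269 in vector arrays. For 8 markers of immune, endothelial and stromal cells it was 807 to 904 in spheres and 427 to 432 in parental cells, and 538 to 587 and 565 to 621 in the arrays labelled Snail and the vector arrays; normalised array signals have no true zero, and the part of these markers in the results was not tested. LUM, a stromal proteoglycan, rose most among them, by 3.78 in spheres. The brightest markers dominate such sums, and single colon epithelial markers went both ways. In spheres VIL1 changed by -0.77, CDX2 by -0.44 and KRT19 by 0.64, and EPCAM, KRT8 and KRT18 by -0.13 to 0.06. In the arrays labelled Snail VIL1 changed by -1.06 and CDX2 by -0.07, and EPCAM and the keratins KRT8, KRT18 and KRT19 by 0.30 to 0.57. On the sphere arrays 2 probe sets for the added control RNA BioC were 1.72 and 1.57 higher than on the parental arrays, and the actin signal at the 3′ end exceeded that at the 5′ end by 0.72 and 0.95 in spheres, against 0.66 and 0.59 in parental cells. The same actin gap was 0.20 and 0.22 in the arrays labelled Snail and 0.12 and 0.18 in the vector arrays, so it differed between the lines, while the GAPDH gap was 0.14 and 0.21 in spheres, 0.24 and 0.15 in parental cells, 0.065 and 0.069 in the arrays labelled Snail and 0.14 and 0.15 in the vector arrays; the part of these values in the results was not tested. In these bulk samples, fewer cells expressing a gene and less RNA per cell cannot be told apart.

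The comparison of HT29 spheres with parental cells asks how chaperone genes differ between sphere culture and ordinary culture. The stress-inducible HSP70 gene HSPA6 rose 41.2-fold, the small heat shock protein genes HSPB8 and CRYAB 4.65-fold and 2.85-fold, the BiP co-chaperone DNAJB9 3.32-fold, and the HSP110 gene HSPH1 2.42-fold (n = 2 each). The parental levels of HSPA6 and CRYAB lay below every array's median and are not shown to be above background, so their folds are those of the normalised values and not exact ratios of RNA. Of the 77 genes, 21 were higher and 13 lower in spheres. The 34 called genes were 44.2% of the family, against 31.4% of all genes called in this comparison (12.4% of all genes higher and 19.0% lower). The median log2 fold change was 0.09 over the 77 genes and 0.04 over all genes. On 54 of the 77 genes (70.1%) the sphere arrays did not overlap the parental arrays, against 62.9% of all genes. After quantile normalisation of the arrays the split was 24 higher and 8 lower.

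**Figure D1:**
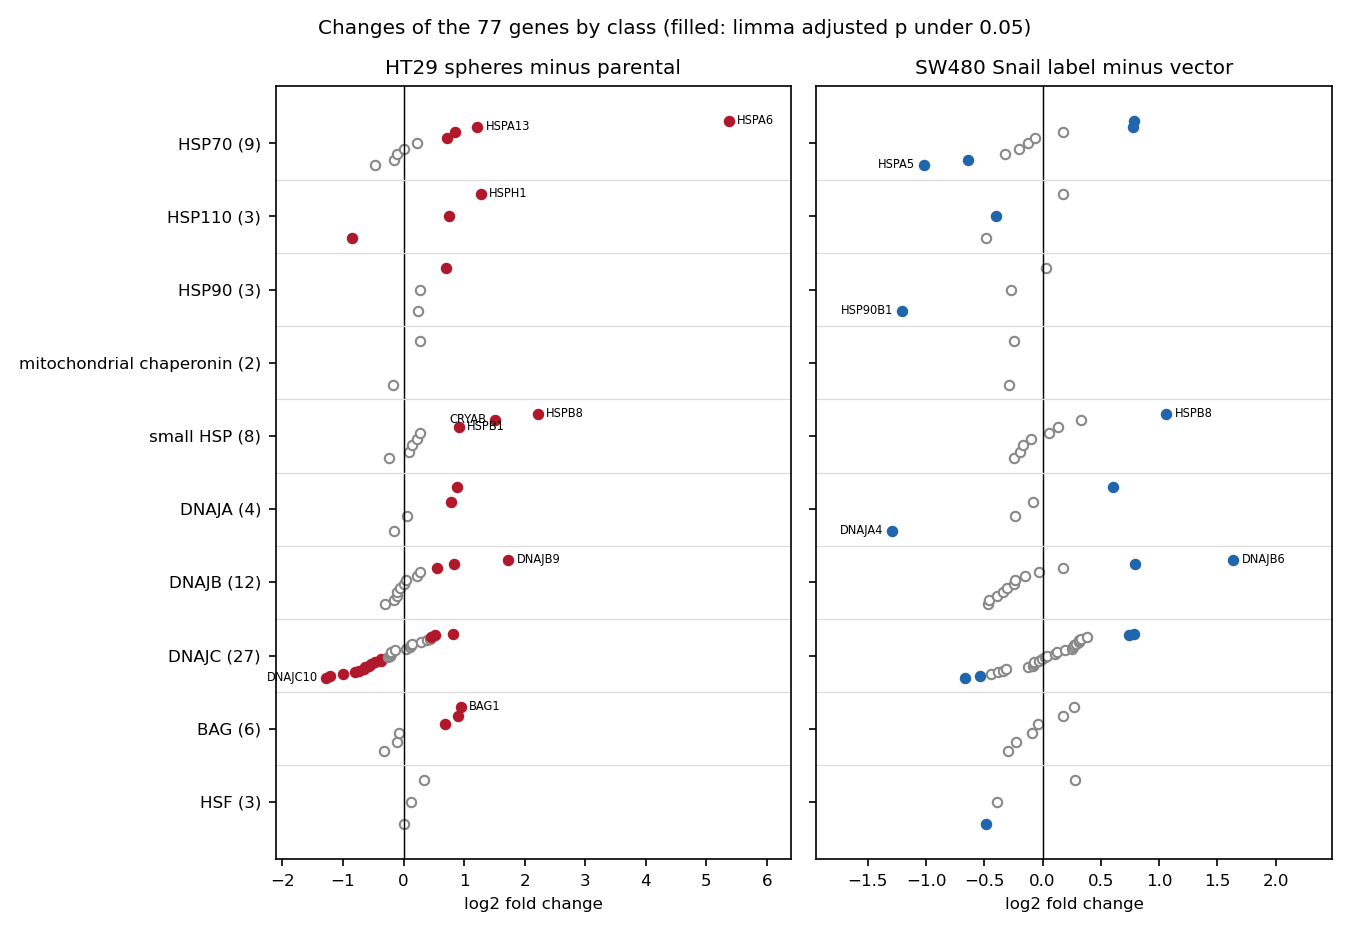
Log2 fold change (x axis) of each of the 77 genes, in rows by family with the number of genes in parentheses; HT29 spheres minus parental are on the left and SW480 arrays labelled Snail minus vector on the right. Filled points passed the test (21 higher and 13 lower in spheres, 8 higher and 8 lower under the Snail label), and HSPA6 lies far to the right of every other gene in spheres.

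Among the HSP70 genes, 4 of 9 rose in spheres and none fell, with 44.4% called against 31.4% of all genes. HSPA1A, HSPA1B and HSPA8 were not among the 9, since no probe set named any of them alone. HSPA6, which encodes a human HSP70 that is made at very low levels until cells are stressed, had levels of 10.42 and 10.53 on the sphere arrays and 5.20 and 5.02 on the parental arrays. The sphere levels lay far above the median of all probe sets on an array (at most 5.61) and the parental levels below it on every array, and the change was 5.37 ± 0.13 (SE, adjusted p = 2.0e-08). A second, dimmer HSPA6 probe set gave a smaller change of 3.49 (8.81 in spheres and 5.32 in parental cells on average; adjusted p = 2.7e-07 over probe sets). HSPA5, the ER HSP70 BiP, was at 13.07 and 13.06 in spheres and 12.38 and 12.04 in parental cells, a change of 0.85 ± 0.14 (adjusted p = 9.5e-04). A dimmer HSPA5 probe set gave -0.05 (adjusted p = 0.85 over probe sets). HSPA13, an HSP70-like ATPase of the ER, was at 9.96 and 9.90 in spheres and 8.999 and 8.43 in parental cells (1.22 ± 0.18, adjusted p = 5.2e-04), but a second, slightly dimmer probe set gave -0.46 and their mean gave 0.38 (adjusted p = 0.17). HSPA1L, a testis-enriched HSP70, changed by 0.72 ± 0.22 (adjusted p = 0.028), and its call was lost without sphere array 1, sphere array 2 or parental array 1, with values of 0.34 to 1.10 over all omissions. The mitochondrial HSP70 HSPA9 gave 0.01 ± 0.21 (adjusted p = 0.98), with sphere arrays at 11.28 and 11.18 lying between the parental arrays at 11.60 and 10.84. Testis-enriched HSPA2 gave -0.48 ± 0.22 (adjusted p = 0.13), and the 5 HSP70 genes that were not called ran from -0.48 to 0.22.

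The 3 HSP110 genes, whose proteins recharge HSP70 with ATP, were all called, against 31.4% of all genes. HSPH1 stood at 12.32 and 12.34 in spheres and at 11.06 and 11.05 in parental cells, a change of 1.28 ± 0.12 (adjusted p = 2.4e-05), with the arrays of each group nearly level. HSPA4 was at 10.92 and 10.95 in spheres and 10.17 and 10.21 in parental cells (0.74 ± 0.12, adjusted p = 7.3e-04). Of its other 3 probe sets, 2 gave 0.87 and 1.02 and the dimmest gave -1.10 (adjusted p = 1.4e-04), so its direction depends on the probe set. HSPA4L fell, with 7.39 and 7.47 in spheres and 8.43 and 8.13 in parental cells (-0.85 ± 0.15, adjusted p = 0.0018). In the HSP90 family the inducible cytosolic form HSP90AA1 rose (13.06 and 13.17 in spheres, 12.51 and 12.32 in parental cells; 0.70 ± 0.13, adjusted p = 0.0019). The constitutive form HSP90AB1 gave 0.24 ± 0.12 (adjusted p = 0.17) and the ER form HSP90B1 gave 0.26 ± 0.12 (adjusted p = 0.13). Neither mitochondrial chaperonin gene was called by limma, although 1 of the 2 had an unadjusted p under 0.05: HSPD1 was at 13.13 and 13.19 in spheres and 13.43 and 13.24 in parental cells (-0.18 ± 0.12), and HSPE1 at 11.58 and 11.52 against 11.24 and 11.32 (0.27 ± 0.12).

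Small heat shock proteins rose in 3 of 8 cases and fell in none. The 37.5% called lies near the 31.4% of all genes and is no result about the family. HSPB8, a partner of BAG3 in delivering damaged proteins to autophagy, had 7.82 and 8.11 on the sphere arrays and 5.79 and 5.71 on the parental arrays (2.22 ± 0.16, adjusted p = 4.9e-06). A dimmer HSPB8 probe set gave 0.35 (adjusted p = 0.073 over probe sets). CRYAB, alpha-B-crystallin, had 6.99 and 6.96 on the sphere arrays and 5.47 and 5.46 on the parental arrays (1.51 ± 0.15, adjusted p = 3.5e-05). In parental cells HSPB8 lay just above the array medians and CRYAB just below them. HSPB1, HSP27, was at 11.67 and 11.84 in spheres but at 10.24 and 11.45 in the 2 parental arrays, 1.21 apart. Its change of 0.91 ± 0.30 (adjusted p = 0.038) was 0.31 without parental array 1, and the call was lost on omitting any of 5 arrays. The other 5 small heat shock protein genes gave -0.24 to 0.27.

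**Figure D2:**
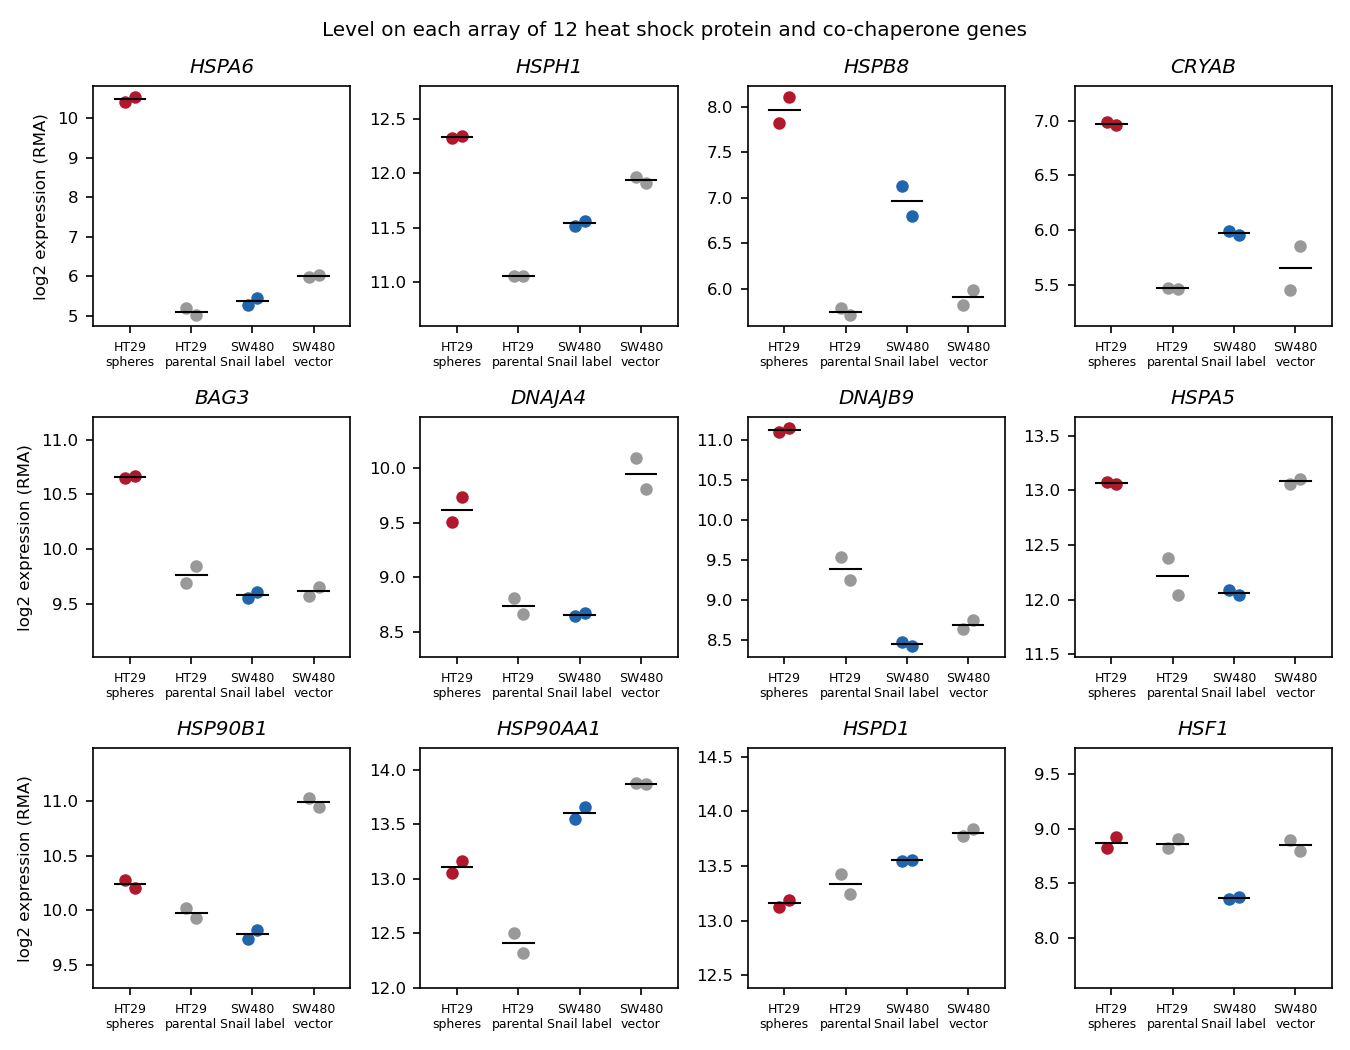
Log2 expression on each array (y axis, a scale of its own for each gene) of 12 genes in HT29 spheres, HT29 parental cells, SW480 arrays labelled Snail and SW480 vector arrays; points are arrays and lines are means of 2 arrays. HSPA6 exceeds 10 on both sphere arrays and is at 6.04 or less on the other 6, while HSP90B1 and HSPA5 are lower in the arrays labelled Snail than in the vector arrays.

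J-domain proteins pass clients to HSP70 and are described here by subfamily; differences between subfamilies were not tested. Of 4 DNAJA genes 2 rose in spheres: DNAJA1, the main cytosolic partner of HSP70 in this class, at 12.21 and 12.24 in spheres against 11.46 and 11.44 in parental cells (0.78 ± 0.14, adjusted p = 0.0019), and DNAJA4 at 9.51 and 9.73 against 8.81 and 8.67 (0.88 ± 0.14, adjusted p = 9.8e-04). Of 12 DNAJB genes 3 rose and none fell. The called share was 50% of the DNAJA genes and 25% of the DNAJB genes, against 31.4% of all genes. The DNAJB share is no result about that subfamily. DNAJB9, an ER co-chaperone of BiP, was at 11.10 and 11.15 in spheres and 9.54 and 9.25 in parental cells (1.73 ± 0.14, adjusted p = 9.3e-06). DNAJB2, a neuronally enriched J protein with ubiquitin-binding motifs, was at 8.33 and 8.40 in spheres against 7.48 and 7.60 in parental cells (0.83 ± 0.12, adjusted p = 5.7e-04), and DNAJB6, a suppressor of protein aggregation, was at 9.56 on both sphere arrays against 9.02 and 9.01 (0.54 ± 0.12, adjusted p = 0.0056). DNAJB1, the stress-inducible HSP40, gave 0.01 ± 0.13 (adjusted p = 0.95) on its brighter probe set and 1.03 (adjusted p = 5.0e-04 over probe sets) on the other, so the array does not settle it. DNAJB4, a close relative of DNAJB1, gave 0.27 ± 0.13 (adjusted p = 0.15), and all 9 DNAJB genes that were not called ran from -0.30 to 0.27. A dimmer DNAJB4 probe set gave 0.58 in spheres and -0.69 in the arrays labelled Snail (adjusted p = 0.027 and 0.023 over probe sets). The dimmest DNAJB14 probe set gave -0.48 in spheres (adjusted p = 0.018 over probe sets).

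The DNAJC genes, a mixed group whose members act at many sites in the cell, mostly fell where they changed, with 12 of 27 lower and 3 higher in spheres (31.4% of all genes were called). DNAJC10, an ER disulfide reductase, was lowest relative to parental cells, at 8.74 and 8.93 in spheres and 10.29 and 9.95 in parental cells (-1.28 ± 0.14, adjusted p = 8.8e-05). DNAJC6, auxilin, which uncoats clathrin-coated vesicles, was at 3.86 and 4.03 in spheres and 5.12 and 5.18 in parental cells (-1.21 ± 0.13, adjusted p = 6.9e-05); all 4 levels lay below the array medians. A dimmer DNAJC6 probe set gave 0.06 (adjusted p = 0.85 over probe sets). DNAJC12, a co-chaperone of aromatic amino acid hydroxylases, fell by 0.80 (adjusted p = 8.7e-04), though averaging its probe sets gave -0.14 (adjusted p = 0.49). DNAJC19, a component of the mitochondrial import motor, fell by 0.73 (adjusted p = 0.0025). DNAJC18 was at 6.06 and 5.01 on the sphere arrays, 1.05 apart, and at 6.63 and 6.44 on the parental arrays (-0.996 ± 0.26, adjusted p = 0.016); without sphere array 2 its change was -0.47 and was not called. Of the 3 higher genes, DNAJC3, an ER co-chaperone that also inhibits the kinase PERK, was at 10.59 and 10.88 against 10.13 and 9.72 (0.81 ± 0.17, adjusted p = 0.0038). The remaining 7 lower DNAJC genes, DNAJC9, DNAJC4, DNAJC1, DNAJC7, DNAJC13, DNAJC11 and DNAJC27, changed by -0.65 to -0.37. The call of each of these 7 was lost on leaving out at least 1 array. DNAJC30 and DNAJC15 changed by 0.52 and 0.45. Their calls were lost in the same way, with values of 0.31 to 0.74 and 0.25 to 0.66. Dimmer DNAJC15 probe sets gave -0.50 and 0.35, neither called. On their brightest probe sets the 12 not called changed by -0.26 to 0.44. Dimmer probe sets gave -1.74 and -0.55 for DNAJC22 and -1.06 and 0.57 for DNAJC21, all called over probe sets. The call of DNAJC13 (-0.47, adjusted p = 0.033) was lost in 7 of 8 omissions of 1 array, with values of -0.66 to -0.27, and its most variable probe set gave 0.29. Calls of 5 of the 13 lower genes of the whole family held in all 8 omissions of 1 array, against 17 of the 21 higher genes. The number of lower genes was 6 without sphere array 1, 8 without sphere array 2 and 7 without parental array 1.

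Nucleotide exchange factors of the BAG family rose in 3 of 6 cases (50% called, against 31.4% of all genes). BAG1, which links HSP70 to the proteasome, was at 9.62 and 9.49 in spheres and 8.53 and 8.70 in parental cells (0.94 ± 0.16, adjusted p = 0.001). BAG3, the partner of HSPB8, was at 10.65 and 10.67 in spheres and 9.69 and 9.84 in parental cells (0.89 ± 0.12, adjusted p = 3.2e-04). BAG5 rose by 0.68 (adjusted p = 0.002), but its probe set with the largest variance gave 0.016. The 3 heat shock factor genes were not called by limma, with 1 unadjusted p under 0.05: HSF1 was at 8.82 and 8.92 in spheres and 8.82 and 8.90 in parental cells, and HSF4 gave 0.33 ± 0.14 (adjusted p = 0.099). These are RNA levels; HSF1 is regulated largely as a protein, which the arrays do not measure.

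In the arrays labelled Snail, 8 of the 77 genes were higher and 8 lower than in the vector line. The ER chaperones HSP90B1 and HSPA5 and the J protein DNAJA4 fell, and DNAJB6 and HSPB8 rose. The 16 called genes were 20.8% of the family, against 16.2% of all genes (8.91% of all genes higher and 7.34% lower), and the median log2 fold change was -0.08 against 0.01 over all genes. The 20.8% lies near the 16.2% of all genes and is no result about the family. On 57 of the 77 genes (74%) the arrays did not overlap, against 60.4% of all genes. Fewer genes were lower when an SW480 array was left out, namely 3 without Snail array 1, 4 without Snail array 2, 4 without vector array 1 and 3 without vector array 2, and 10 genes were called in all without Snail array 1. More genes were lower under other settings, namely 12 without either parental array, 13 without the dimmest 40% of genes, 15 with array weights and 15 with an intensity trend. When the probe sets of a gene were averaged, only DNAJB6 and HSPB8 of the 8 higher genes were still called. DNAJB6 has 1 probe set, so averaging could not change its value. On the same arrays the probe sets for added bacterial control RNAs differed from the vector arrays by -0.53 to -0.24, and 3 probe sets for 28S ribosomal RNA were 0.10 to 1.92 higher; their part in these changes was not tested.

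HSP90B1, the HSP90 of the ER, was at 9.74 and 9.82 in the arrays labelled Snail and at 11.03 and 10.95 in the vector arrays (-1.21 ± 0.12, adjusted p = 2.1e-04). HSPA5 was at 12.09 and 12.04 in the arrays labelled Snail and at 13.06 and 13.11 in the vector arrays (-1.02 ± 0.14, adjusted p = 0.0011). Dimmer probe sets gave 0.11 for HSP90B1 and -0.26 for HSPA5 (adjusted p = 0.75 and 0.32 over probe sets), and neither was called. HSP90B1 and HSPA5 are the genes whose promoter windows above hold the ER stress response element, and the remaining 5 of 7 lower genes with a window lacked it. The element was already known for these genes, so finding it there tests nothing. In spheres HSPA5 was higher and HSP90B1 was not called. The part of the element in these changes was not tested. Another ER protein, DNAJC10, was at 8.94 and 8.95 against 9.60 and 9.62 (-0.66, adjusted p = 0.012). Its call was lost on omitting any SW480 array, with changes of -0.67 to -0.65. By contrast DNAJB9, also an ER J protein, gave -0.25 ± 0.14 (adjusted p = 0.26), with levels of 8.47 and 8.42 against 8.64 and 8.75.

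Among cytosolic chaperones, DNAJA4 was at 8.64 and 8.67 in the arrays labelled Snail and at 10.09 and 9.81 in the vector arrays (-1.29 ± 0.14, adjusted p = 4.2e-04). HSPA6 was low in both, at 5.28 and 5.46 against 5.98 and 6.04 (-0.64 ± 0.13, adjusted p = 0.0091), and its call was lost without Snail array 1 or vector array 2 (adjusted p up to 0.081). Its second probe set gave -0.17 (adjusted p = 0.58 over probe sets), and the mean of both gave -0.40, which was not called. HSPH1 was at 11.52 and 11.57 against 11.97 and 11.91 (-0.40 ± 0.12, adjusted p = 0.044); its change was -0.37 to -0.42 on leaving out an array and was not called in 6 of 8 omissions. HSF1 was at 8.35 and 8.37 against 8.89 and 8.80 (-0.48 ± 0.12, adjusted p = 0.022), and its call was lost on omitting any SW480 array, with changes of -0.53 to -0.44. HSP90AA1 gave -0.27 ± 0.13 (adjusted p = 0.19), HSP90AB1 0.03 ± 0.12 (adjusted p = 0.91) and DNAJB1 -0.34 ± 0.13 (adjusted p = 0.1). The dimmest HSP90AA1 probe set gave -0.66 (adjusted p = 0.026 over probe sets), and the others, not called, gave -0.24 and -0.33. HSPA4 gave 0.17 ± 0.12 (adjusted p = 0.37), HSPA9 0.18 ± 0.21 (adjusted p = 0.64) and HSPA2 -0.20 ± 0.22 (adjusted p = 0.61). The dimmest HSPA4 probe set gave -0.63 (adjusted p = 0.011 over probe sets), and the others, not called, gave 0.16 and 0.19.

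DNAJB6 was the gene that rose most in the arrays labelled Snail, 3.11-fold, at 9.81 and 9.94 against 8.25 and 8.23 in the vector arrays (1.64 ± 0.12, adjusted p = 3.2e-05). HSPB8 was at 7.13 and 6.80 in the arrays labelled Snail and at 5.82 and 5.99 in the vector arrays (1.06 ± 0.16, adjusted p = 0.0016). Its dimmer probe set gave -0.18 (adjusted p = 0.44 over probe sets). HSPA14, the HSP70 of the ribosome-associated complex, was at 9.64 and 9.84 against 8.97 and 8.95 (0.77 ± 0.13, adjusted p = 0.0035), while its J-protein partner DNAJC2 gave -0.53 (10.79 and 10.76 against 11.32 and 11.29; adjusted p = 0.049) and was not called in 6 of 8 omissions. HSPA12A, a distant HSP70 relative, was at 8.45 and 8.70 against 7.78 on both vector arrays (0.79 ± 0.13, adjusted p = 0.003). DNAJB12, a J protein of the ER membrane, changed by 0.79 ± 0.13 (adjusted p = 0.0026), and DNAJA2, a cytosolic partner of HSP70, by 0.61 ± 0.13 (adjusted p = 0.01). DNAJC6 was at 8.28 and 8.43 against 7.54 and 7.68 (0.74 ± 0.13, adjusted p = 0.004), and DNAJC13, which acts in sorting at endosomes, was at 9.10 and 8.99 against 8.25 and 8.28 (0.78 ± 0.15, adjusted p = 0.0054; 0.73 and not called without Snail array 1). Averaged over probe sets, HSPA14, HSPA12A, DNAJB12, DNAJA2, DNAJC6 and DNAJC13 gave 0.20, 0.21, 0.20, 0.28, 0.21 and 0.29 in that order, and none was called.

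Some families held no called gene in this comparison, in which 16.2% of all genes were called. None of the 6 BAG genes was called by limma, with 1 unadjusted p under 0.05; BAG3 was at 9.55 and 9.60 in the arrays labelled Snail and 9.57 and 9.66 in the vector arrays, and BAG1 gave 0.27 ± 0.16 (adjusted p = 0.29). Neither chaperonin gene was called, with 1 of 2 unadjusted p-values under 0.05; HSPD1 gave -0.25 ± 0.12 and HSPE1 -0.29 ± 0.12. A dimmer HSPD1 probe set gave -1.31 (adjusted p = 0.03 over probe sets), and its remaining ones, not called, gave -0.30 to 0.17. Among the small heat shock proteins, 7 of 8 were not called, with changes of -0.25 to 0.33. On their brightest probe sets the 10 DNAJB genes that were not called ran from -0.47 to 0.18 and the 23 DNAJC genes from -0.45 to 0.38. Some dimmer probe sets of these genes were called over probe sets and lay outside these ranges. They gave -1.06 for DNAJB5, -0.69 for DNAJB4, -0.89 for DNAJC27 and -0.69 for DNAJC7. For DNAJC18, DNAJC16 and DNAJC15 they gave -0.62, -0.52 and 1.05. CRYAB was one of the small heat shock proteins not called, at 5.995 and 5.96 against 5.45 and 5.85.

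**Figure D3:**
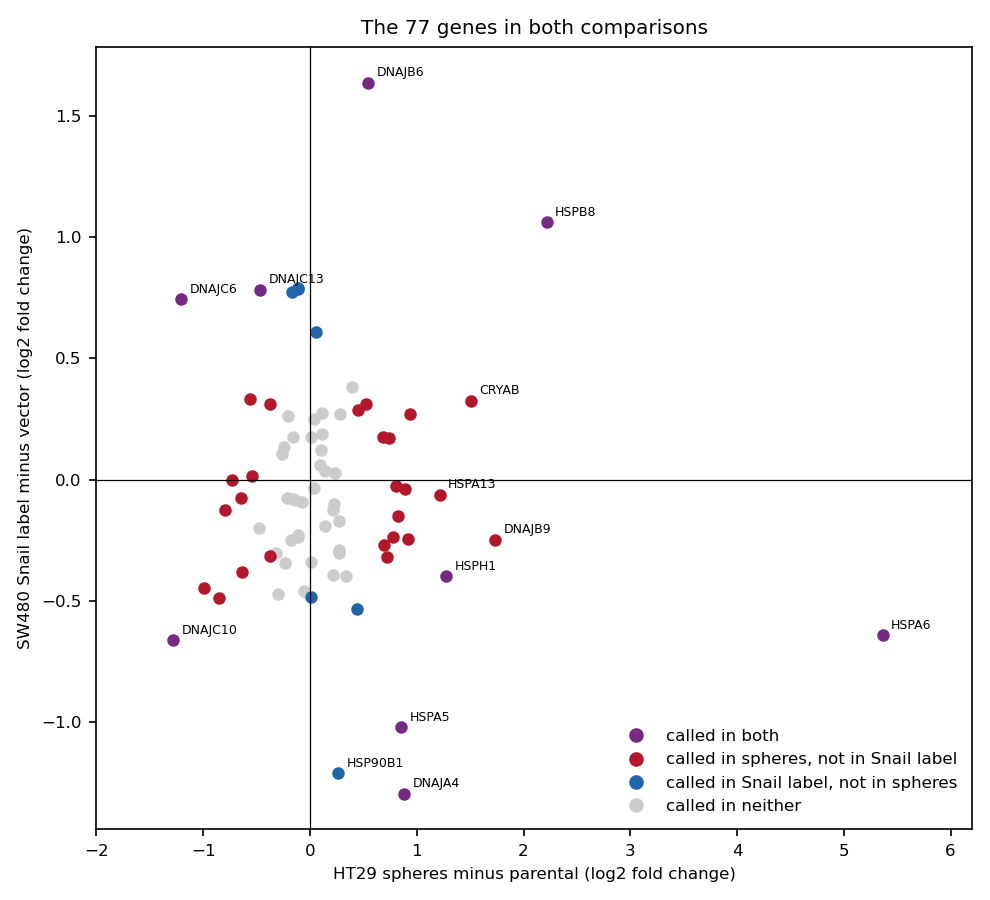
Log2 fold change of each of the 77 genes in HT29 spheres minus parental (x axis) and in SW480 arrays labelled Snail minus vector (y axis), which share no arrays; colours mark where a gene passed the test. Of the 9 genes called in both, DNAJB6 and HSPB8 are higher in both, HSPA6, HSPH1, HSPA5 and DNAJA4 are higher in spheres and lower under the Snail label, DNAJC6 and DNAJC13 are the reverse and DNAJC10 is lower in both.

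The sphere and Snail comparisons came from different cell lines and different arrays, and 9 genes were called in both. DNAJB6 and HSPB8 were higher in both, and DNAJC10 was lower in both. The Snail call of DNAJC10 was lost on omitting any SW480 array, and a dimmer HSPB8 probe set was called in neither comparison. HSPA6, HSPH1, HSPA5 and DNAJA4 rose in spheres and fell under the Snail label, and DNAJC6 and DNAJC13 did the reverse. Of these opposite pairs, those of HSPA6, HSPH1 and DNAJC13 rest on at least 1 call that was lost on leaving out an array. The pairs of DNAJC6 and HSPA5 were not seen on a dimmer probe set of each gene. The DNAJC6 one, with a mean below every array's median, gave 0.06 in spheres and -0.32 in the arrays labelled Snail. The HSPA5 one gave -0.05 and -0.26, and none of these values was called over probe sets. A further 25 genes were called in spheres alone, 7 in the arrays labelled Snail alone and 36 in neither; being called in one and not in the other is not a test of the difference. The difference itself, the sphere change minus the Snail change, was called for 33 of the 77 genes (42.9%), 21 positive and 12 negative, against 27.5% of all genes (10.6% positive and 16.9% negative). The number of negative differences was 7 without vector array 1, and quantile normalisation gave 23 positive and 8 negative. The largest positive difference was that of HSPA6 (6.01 ± 0.19, adjusted p = 1.6e-07; 3.66 on its second probe set) and the largest negative one that of DNAJC6 (-1.95 ± 0.18, adjusted p = 5.8e-05). HSPB8 differed by 1.15 (adjusted p = 0.0032) although it rose in both.

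The control cells of the lines were compared to show how far the families differ before either treatment. SW480 vector cells had higher levels of 31 of the 77 genes and lower levels of 16 than HT29 parental cells. These 47 genes were 61% of the family, against 46.1% of all genes (22.6% higher and 23.5% lower), and the median difference was 0.16 against 0.07 over all genes. The comparison shares its arrays with both treatments, and the line differs together with the vector. The actin gap between the 3′ and 5′ ends was 0.12 and 0.18 in SW480 vector cells and 0.66 and 0.59 in HT29 parental cells, and its part in this comparison was not tested. All of the called HSP70, HSP110, HSP90, chaperonin and small heat shock protein genes, 13 in number, were higher in SW480 vector cells.

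Among these, HSPA12A was at 7.78 on both SW480 vector arrays and at 5.14 and 5.24 on the HT29 parental arrays (2.60 ± 0.13, adjusted p = 1.0e-07). HSPA2 was at 8.33 and 8.41 in SW480 vector cells and 6.42 and 7.21 in HT29 parental cells (1.56 ± 0.22, adjusted p = 1.8e-04). HSP90AA1 was at 13.87 on both vector arrays and 12.51 and 12.32 on the parental arrays (1.46 ± 0.13, adjusted p = 6.1e-06). The chaperonin genes HSPE1 and HSPD1 were 0.85 and 0.47 higher, and HSPA6, at 5.98 and 6.04 against 5.20 and 5.02, was 0.90 higher. A second HSPA6 probe set gave 0.385, not called over probe sets, and a dimmer HSPA12A probe set gave 0.58. HSPB8 (0.16) and CRYAB (0.18) were not called.

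The DNAJC genes were spread in both directions, with 8 higher and 9 lower in SW480 vector cells (63% called, against 46.1% of all genes). DNAJC15, a mitochondrial inner membrane J protein, was at 11.38 and 11.46 in SW480 vector cells and at 8.59 and 8.18 in HT29 parental cells (3.04 ± 0.15, adjusted p = 1.0e-07). DNAJC6 was at 7.54 and 7.68 against 5.12 and 5.18 (2.46 ± 0.13, adjusted p = 1.5e-07). DNAJC12 ran the other way, at 4.91 and 5.07 in SW480 vector cells and 8.64 and 8.49 in HT29 parental cells (-3.58 ± 0.13, adjusted p = 1.0e-08). DNAJC18 was 1.47 higher, DNAJC4 1.15 lower on this scale (-1.15 ± 0.18), and DNAJC21, which matures the large ribosomal subunit, and DNAJC5, a chaperone of synaptic vesicles, gave -0.92 and -0.82. DNAJB12 gave -1.06 ± 0.13 (adjusted p = 6.3e-05). Other probe sets gave other sizes for several of these genes. Those of DNAJB12 gave -0.54, 0.01 and 0.03, of which only the first was called over probe sets, and those of DNAJC4 gave -0.49 to 0.09. Dimmer probe sets gave 0.28 for DNAJC6 (not called), 2.57 and 0.0002 for DNAJC15, and -5.46 and -1.63 for DNAJC12.

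**Figure D4:**
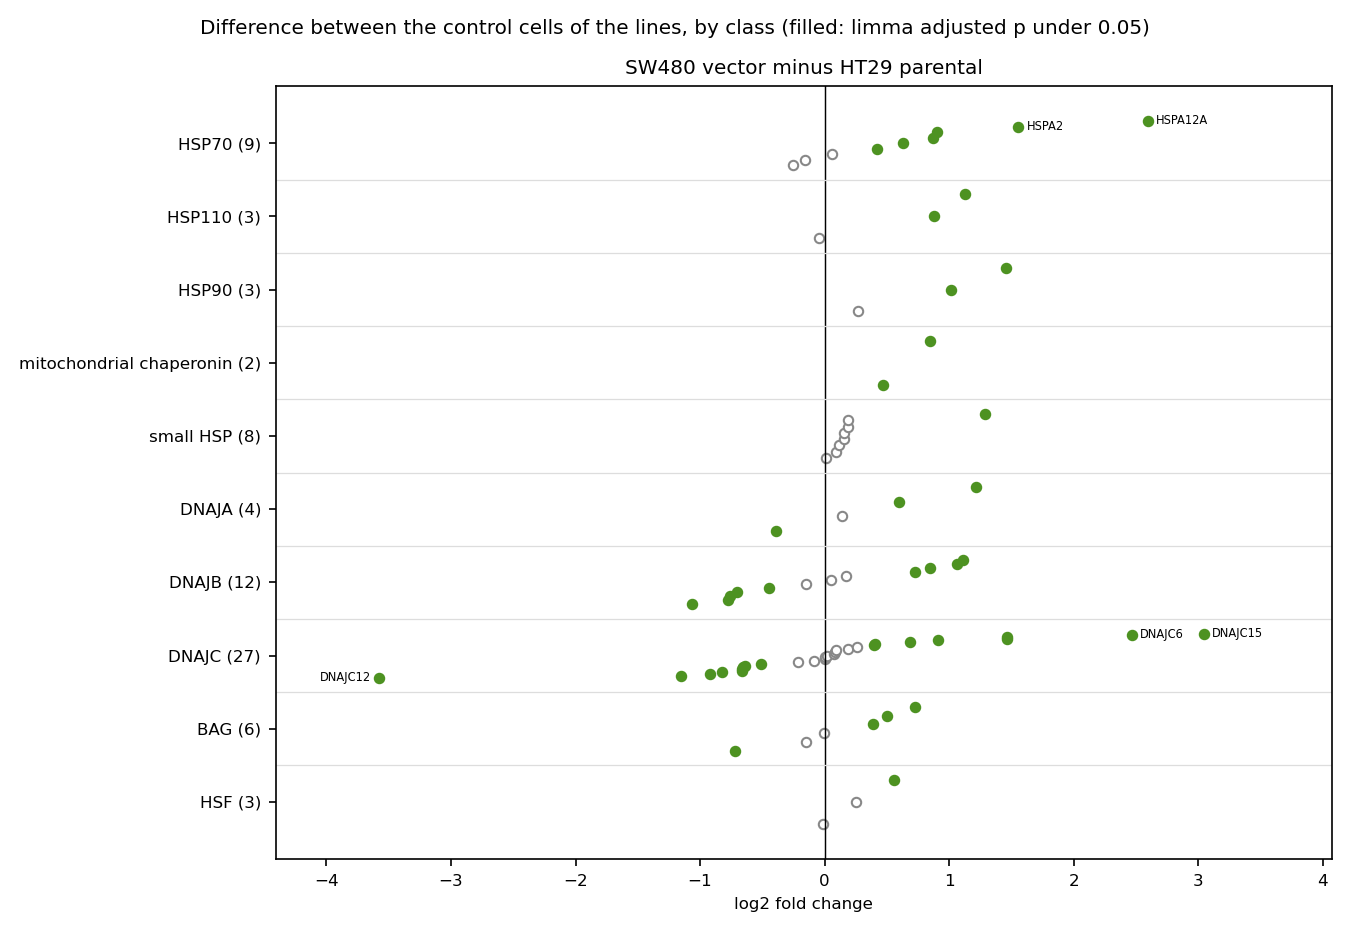
Log2 difference (x axis) between SW480 vector and HT29 parental cells for each of the 77 genes, in rows by family with the number of genes in parentheses; filled points passed the test. DNAJC15, HSPA12A and DNAJC6 lie furthest to the right at 3.04, 2.60 and 2.46, and DNAJC12 furthest to the left at -3.58.

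Other chaperone genes were examined as 4 lists, to be read against the 31.4% of all genes called in spheres and the 16.2% called in the arrays labelled Snail. In spheres 28.6% of the HSP90 co-chaperones, 41.7% of the cytosolic chaperonin and prefoldin subunits, 42.9% of the HSP70 helpers and 66.7% of the other heat shock factor targets were called, and in the arrays labelled Snail 21.4%, 0%, 14.3% and 22.2% in the same order. The HSP90 co-chaperone shares lie near those of all genes and are no result about the list. The same holds in the arrays labelled Snail for the HSP70 helpers and the other heat shock factor targets. The lists are small, and no share was tested against that of all genes. Of 14 HSP90 co-chaperones 2 rose and 2 fell in spheres: CDC37L1, a relative of the kinase co-chaperone CDC37, was at 8.42 and 8.53 against 7.65 and 7.40 in parental cells (0.95 ± 0.13, adjusted p = 3.6e-04), and FKBP5, a steroid receptor co-chaperone, was at 8.58 and 8.52 against 9.62 and 9.20 (-0.86 ± 0.15, adjusted p = 0.0016). Other probe sets weakened both, since the mean gave 0.24 for CDC37L1 and the most variable probe set -0.23 for FKBP5. In the arrays labelled Snail 3 of the 14 fell and none rose, among them TOMM34, at 10.69 and 10.58 against 11.75 and 11.77 in vector arrays (-1.13 ± 0.16, adjusted p = 0.0016), and FKBP4 (-0.53 ± 0.13, adjusted p = 0.022), whose call was lost without any one SW480 array (-0.63 to -0.43).

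All 12 measured subunits of the cytosolic chaperonin and of prefoldin, which fold actin and tubulin, had negative changes in spheres, with a median of -0.36, and 5 of them were called. PFDN4 was at 10.12 and 10.30 in spheres and 11.11 and 10.995 in parental cells (-0.84, adjusted p = 5.6e-04), and CCT3 at 11.27 and 11.31 against 11.91 and 11.80 (-0.56, adjusted p = 0.0054). None of the 12 was called by limma in the arrays labelled Snail and none had an unadjusted p under 0.05; their changes ran from -0.23 to 0.23. Subunits of 1 complex are not independent replicates.

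Of 7 HSP70 helpers 2 rose and 1 fell in spheres. GRPEL1, the nucleotide exchange factor of mitochondrial HSP70, was at 10.33 and 10.40 against 9.92 and 9.46 in parental cells (0.67, adjusted p = 0.0081; 0.64 and not called without sphere array 2). SIL1, an exchange factor of BiP, was at 7.95 and 8.22 against 7.54 and 7.38 (0.63, adjusted p = 0.0052). In the arrays labelled Snail 1 of the 7 fell: HYOU1, an ER relative of HSP110 and also an exchange factor of BiP, was at 10.95 and 10.72 against 11.83 and 11.64 in vector arrays (-0.90 ± 0.18, adjusted p = 0.0069), and its call was lost without Snail array 2 (-0.79) or vector array 1 (-0.81). GRPEL2 gave 0.55 (adjusted p = 0.088).

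Of 9 other genes known as heat shock factor targets, 5 rose and 1 fell in spheres. SQSTM1, the autophagy receptor p62, was at 12.17 and 12.13 against 10.68 and 10.86 in parental cells (1.38, adjusted p = 2.6e-05). ZFAND2A, a proteasome-binding protein induced by arsenite, was at 9.47 and 9.59 against 8.30 and 8.21 (1.28, adjusted p = 3.5e-05). In the arrays labelled Snail none of the 9 rose and 2 fell. SERPINH1, the collagen chaperone HSP47, was at 10.08 and 10.05 against 11.55 and 11.36 in vector arrays (-1.39 ± 0.13, adjusted p = 1.5e-04). CLU, the extracellular chaperone clusterin, was at 10.31 and 10.48 against 11.02 and 10.97 (-0.60, adjusted p = 0.012), with the call lost without Snail array 1, vector array 1 or vector array 2 (-0.52, -0.58 and -0.62).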

How the data were processed

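RNA of 8 samples was measured on Affymetrix arrays, 1 array each. The deposited values are log2 expression levels; the submitters' processing notes name RMA as the authors' method, and the values were used without further normalisation. Of 54675 probe sets, 62 are controls, 41091 name 1 gene, 1801 name several and 11721 have no name here; names come from GEO's platform annotation, of which 41037 matched RefSeq (GRCh38.p14) and 0 symbols changed. The 77 genes lie on 187 probe sets, and 59 of them have several; probe sets that name several genes were left out of the gene fit, and 13 of them are given as counts under the other observations. Groups were fitted together over all 8 arrays with limma 3.58.1 (R 4.3.3; lmFit and eBayes, 4 residual and 6.10 prior degrees of freedom, two-sided, Benjamini-Hochberg over 19775 genes), with no filter on dim genes, and errors are SEs of the fit with n = 2 per group. Array number limits the precision. The fit was tested on simulated data.

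The families, other lists and tests were chosen with earlier results of these data known. Genes named are a fixed list of well-known members, the 8 largest called changes each way in spheres and in the arrays labelled Snail, 5 each way between lines, 4 each way for the difference, and the 2 with the lowest adjusted p of each other list in each within-line comparison. Of the fixed list, HSPA1A, HSPA1B, HSPA8 and HSF2 are not among the 77 genes, since no probe set names any of them alone. Probe sets quoted for disagreement, and HSPA1L, DNAJB2, DNAJC3, BAG5 and the smaller DNAJC changes in spheres, were picked after values were seen. Alternatives were quantile normalisation, the mean or the most variable probe set of a gene, leaving out the dimmest 40% of genes, each line alone, array weights, an intensity trend, the replicate number as a block, and each array left out. Same-numbered arrays did not deviate together (correlation of deviations across genes 0.03 in HT29 and -0.03 in SW480).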

Additional observations from a re-analysis of the deposited data

Results flagged for a closer look

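The following genes changed differently in the 2 within-line comparisons by a direct test, limma's contrast of the sphere change (HT29 spheres minus parental) minus the Snail change (SW480 arrays labelled Snail minus vector). Cell line, culture form and medium differ between the 2 comparisons together, so what sets a difference cannot be told apart, and 27.5% of all genes were called in the same test. The 4 largest positive differences were those of HSPA6 (6.01 ± 0.19, adjusted p = 1.6e-07), DNAJA4 (2.18 ± 0.20, adjusted p = 5.6e-05), DNAJB9 (1.98 ± 0.19, adjusted p = 6.5e-05) and HSPA5 (1.87 ± 0.20, adjusted p = 9.9e-05). Of these, HSPA6, DNAJA4 and HSPA5 were called in opposite directions in the 2 comparisons. The fall of HSPA6 in the arrays labelled Snail was not called without Snail array 1 or vector array 2 (-0.55 and -0.61), nor by the mean of its probe sets (-0.40), and its second probe set gave -0.17 there and a difference of 3.66. By contrast, DNAJB9 rose in spheres and gave -0.25 (not called) in the arrays labelled Snail. The 4 largest negative differences were those of DNAJC6 (-1.95 ± 0.18, adjusted p = 5.8e-05), DNAJC13 (-1.25 ± 0.21, adjusted p = 0.0014), DNAJB6 (-1.09 ± 0.17, adjusted p = 9.2e-04) and HSPA14 (-0.94 ± 0.19, adjusted p = 0.0041). DNAJC6 and DNAJC13 were called in opposite directions, but the sphere call of DNAJC13 was lost in 7 of 8 omissions of 1 array (-0.66 to -0.27) and its Snail call without Snail array 1 (0.73). The difference was not called for DNAJC13 by the mean of its probe sets (-0.31) or the most variable one (0.13), nor for HSPA14 by the mean (-0.25). A dimmer DNAJC6 probe set gave a difference of 0.38 and a dimmer HSPA5 probe set 0.21, neither called over probe sets. DNAJB6 rose in both by unequal amounts, and HSPA14 gave -0.17 (not called) in spheres.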

How the results depend on the processing

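Each result was recomputed under up to 16 alternatives. Fits of each line alone covered only the 2 within-line comparisons, the replicate block left out the comparison of the lines, and the filter on dim genes dropped some genes. Of the counts of called genes, 168 stayed within 1.5 times the reported count and 15 did not; of single named genes, 1770 values kept direction and call, 145 lost the call, 23 gained it and 21 changed sign. The number of genes lower in spheres, 13 as reported, was 8 after quantile normalisation and 6 to 11 on leaving out each array. For the arrays labelled Snail, averaging probe sets gave 10 called genes and 2 higher, and the number lower, 8 as reported, was 13 without the dimmest 40% of genes (fewer genes tested), 15 with array weights and 15 with an intensity trend. Leaving out an array gave 3 to 12 lower genes and 10 to 20 called there, and the negative differences numbered 7 to 14. Changes of sign in spheres were HSPA9 (-0.0315 by the mean of probe sets and -0.14 by the most variable), DNAJC7 (0.0759 by the mean), and, by the most variable probe set, HSPD1 (0.80), HSPA13 (-0.46), DNAJC11 (0.16) and DNAJC13 (0.29; difference 0.13). In the arrays labelled Snail HSPA4 gave -0.0265 (mean), DNAJA2 -0.0386 (most variable) and SNAI1 -0.0092 (quantile). Leaving out an array turned the sign of values near 0 in spheres, over ranges of -0.037 to 0.059 for HSF1, -0.37 to 0.39 for HSPA9 and -0.056 to 0.084 for DNAJB1, and in the arrays labelled Snail over -0.0088 to 0.066 for HSP90AB1, -0.081 to 0.0027 for BAG3 and -0.028 to 0.035 for SNAI1. The cause of these changes was not tested, beyond that other probe sets target other sequence. With the replicate number as a replicate block, 30 genes were called in spheres, 14 in the arrays labelled Snail and 28 for the difference; the numbers do not pair the samples. The precision is limited by 2 arrays per group.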

Other observations

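Probe sets that name several genes were kept out of the report. Of these, 13 name at least 1 chaperone of the families above, and they were tested as probe sets with no gene singled out. In spheres 6 of the 13 were higher and 1 lower than in parental cells, with changes of -0.93 to 1.40, against 23.2% of all probe sets called. In the arrays labelled Snail 1 was higher and 5 lower than in the vector arrays, with changes of -1.30 to 0.72, against 11.9% of all probe sets called.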
